A study of Mus musculus with 4 samples.

Results

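Tetracycline was set against no tetracycline in crypts of fed mice, gene by gene. The genes covered, called members, were those with a mean of at least 50 normalized counts in both of the authors' tables. They were 13194 genes of 24182 listed in both and 27425 listed in either. Most genes named below were picked by the size of this same contrast or from gene lists. The members and the lists were chosen with earlier results of these data known. RNA had been sequenced from small-intestinal crypts of male C57BL/6J mice aged 9 weeks. One fed group had received tetracycline for 21 days (+Tetra) and the other had not (-Tetra, called SPF in the library names). The study's other groups, with and without the antibiotic, had been fasted for 24 hours. The study asked how depletion by tetracycline of what the labels abbreviate as AKK affects expression in fed and fasted mice. The labels give 1 sample per group and do not say how many mice it held. Each deposited table compares fasted with fed mice. No column states the direction of its fold change, and the tables' names put the fasted state first, so a positive value was taken as higher in fasted mice. Were this reversed, the values given here as fed would be those of the fasted groups. Counts of 2 libraries per group were recovered, as described below. Of the fatty acid oxidation and ketogenesis list, 16 genes summed to 76822 and 107342 normalized counts in the fed libraries without tetracycline. With it they summed to 86589 and 97717.5. In the fasted libraries the sums were 230326 and 297102 without and 253235 and 277266 with tetracycline. The direction was not tested.

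Crypts are the pits between the villi of the gut lining, where stem cells divide and Paneth cells secrete antimicrobial proteins. Tetracycline is an antibiotic that blocks bacterial ribosomes, and mitochondrial ribosomes are of bacterial descent. Gut epithelium senses bacteria and their metabolites, and its C-type lectins of the Reg3 family and the oxidase Duox2 are known to follow the microbiota. Lymphocytes lie between the epithelial cells and come off with them in part.

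The ratio used throughout is the log2 of a gene's fed mean with tetracycline over its fed mean without, with the median over the 13194 genes (0.02) subtracted. The median over all members is therefore 0, and 50% of them lie on each side. The genes and this contrast were chosen together, and the tables had been scaled separately, so the ratios are a description and no test was made. The whole counts behind the means showed 2 fed libraries in each table, although the labels list 1 sample per group. They could be recovered for 12685 members. These libraries carry no label, and whether they came from separate mice is not stated. Within a group, library 1 has the larger size factor. Recovered counts came to 30198465 to 40437190 per fed library. Epithelial genes dominated: Epcam, an adhesion protein of epithelia, had fed means of 84982 and 61392 normalized counts without and with tetracycline, and Vil1, of the brush border, 126467 and 127582.

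The libraries of a group differed from each other. Between the fed libraries, 376 genes were 2-fold or more apart without tetracycline and 972 with it, of which 848 were higher in library 1. Across 12685 genes, log2 values of library 2 with tetracycline correlated more closely with library 1 without it (r = 0.986) than with library 1 with it (r = 0.958). Library 1 with tetracycline stood apart in lymphocyte genes. The 26 recovered genes of the lymphocyte list summed to 42889 and 56622 normalized counts without tetracycline, and to 213828 and 52162 with it. Stem cell and proliferation genes also differed within groups. The 22 proliferation genes summed to 107938 and 72643 without tetracycline and to 72265 and 106101 with it, so that each group held a high and a low library.

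With tetracycline, 457 members were higher by 2-fold or more (3.46%) and 85 were lower (0.644%). Of the 457, 455 had recovered counts, and in 242 of these (1.91% of members with recovered counts) the lowest library with tetracycline exceeded the highest without. For the 85 lower genes, 65 of 78 did not overlap (0.512%). At any size of change, 18.4% of recovered members did not overlap and were higher and 17.7% were lower. Counts of list members that did not overlap are to be read beside these shares. The higher group leaned on library 1 with tetracycline, which was at least 2-fold above library 2 for 368 of the 455 genes. Without that library, 67 members were higher by 2-fold and 187 lower, and 42 of the 457 were among the 67. Of the 85, 67 were among the 187. With each of the 4 libraries left out in turn, 15 of the 457 and 20 of the 85 stayed past 2-fold every time.

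**Figure D1:**
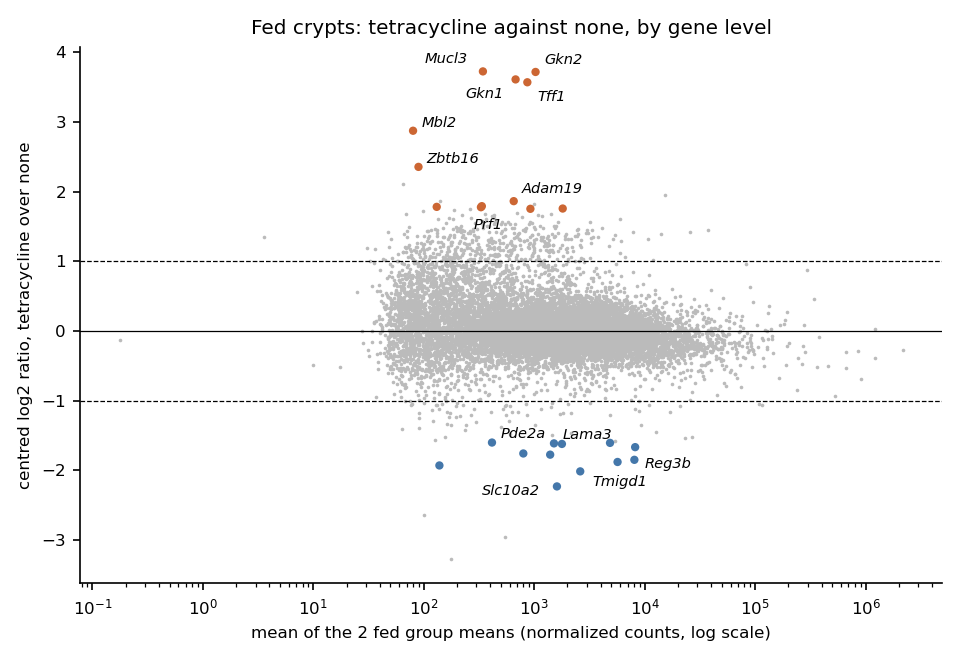
Each grey point is a member, by the mean of its fed group means in normalized counts (log axis) and its centred log2 ratio of tetracycline over none; dashed lines mark 2-fold. Coloured points are the 24 named genes, orange above and blue below 0, and part of them are labelled: 457 genes lie above the upper line and 85 below the lower one.

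Among the 12 genes named for a rise, Mucl3 ranked 1, and the genes at ranks 2 to 4 were genes of the stomach lining. Gkn1 and Gkn2 encode gastrokines, secreted by gastric surface cells, and Tff1 the trefoil peptide of the same cells. Gkn2 (ENSMUSG00000030049.6) had 26.8 and 260.2 normalized counts in the libraries without tetracycline and 739 and 3089 in those with it, a log2 ratio of 3.72 (13.2-fold). Gkn1 (ENSMUSG00000030050.5) had 16.9 and 186 against 534 and 1977 normalized counts (log2 ratio 3.61). Tff1 (ENSMUSG00000024032.8) had 20.8 and 245 against 732 and 2470 normalized counts (log2 ratio 3.57). In each gene library 2 was the higher of its group, and the lowest library with tetracycline was above the highest without. The libraries of a group lay further apart on the log scale for these genes than for most, and the log2 ratio of Gkn1 ranged from 2.42 to 6.19 as single libraries were left out. Mucl3, a mucin-like gene, had 14.9 and 80.4 against 300.03 and 977 normalized counts (log2 ratio 3.73).

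The gastric list held 7 members, of which 7 were above 0, with a median of 1.54. Of these, 5 were past 2-fold higher and did not overlap, beside 1.91% of all recovered members. The median was 0.335 over those with a mean of at least 200, and 1.06 to 2.24 with single libraries left out. Ctse, the aspartic protease cathepsin E, had 186 and 423 against 805 and 990.1 normalized counts (log2 ratio 1.54). Tff2, the trefoil peptide of gastric neck cells, had 140 and 314 against 542 and 577 (log2 ratio 1.28). Both of these were high in the 2 libraries with tetracycline alike. Gkn3 and Pgc, the pepsinogen gene of chief cells, had log2 ratios of 0.03 and 0.32 and overlapped. Gkn1, Gkn2 and Tff1 are on the list, so its median repeats their values in part. Whether stomach tissue was present in the samples was not tested.

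Mbl2, a mannose-binding lectin of innate immunity, was even between libraries. It had 16.9 and 21.1 normalized counts without and 150.4 and 132 with tetracycline, a log2 ratio of 2.88 (7.34-fold), and leaving out each library in turn gave 2.69 to 3.03. Zbtb16, a transcription factor of innate-like lymphocytes that glucocorticoids also induce, had 23.8 and 34.2 against 186 and 114 normalized counts (log2 ratio 2.36). Fkbp5, a glucocorticoid-induced chaperone, had 2449 and 1714 against 4804 and 3888 (log2 ratio 1.04). The libraries did not overlap in any of the 3. The glucocorticoid list as a whole did not lean to a side, with a median of 0.03 over 14 members, 9 above and 5 below 0. Dusp1, a phosphatase on it, had a log2 ratio of -0.65 with overlapping libraries.

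Other genes among the 12 with the highest ratios were uneven between the libraries with tetracycline. Prf1, the pore-forming perforin of cytotoxic lymphocytes, had 148.9 and 148.7 normalized counts without and 868 and 178 with tetracycline (log2 ratio 1.79). Il12rb1, a subunit of the interleukin-12 receptor, had 149.9 and 145 against 824 and 199.5 (log2 ratio 1.78). Adam19, a membrane protease, had 237 and 319 against 1679.7 and 374 (log2 ratio 1.86), and Gramd1a, a sterol transporter, 914 and 723 against 4533 and 1079 (log2 ratio 1.76). Ikzf2, the zinc finger factor Helios of T cells, had 460.5 and 376 against 2298 and 562 (log2 ratio 1.76). In these 5 genes library 2 with tetracycline was only slightly above those without, and without library 1 the log2 ratios of Prf1, Il12rb1, Adam19, Gramd1a and Ikzf2 were 0.22, 0.40, 0.39, 0.36 and 0.39.

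**Figure D2:**
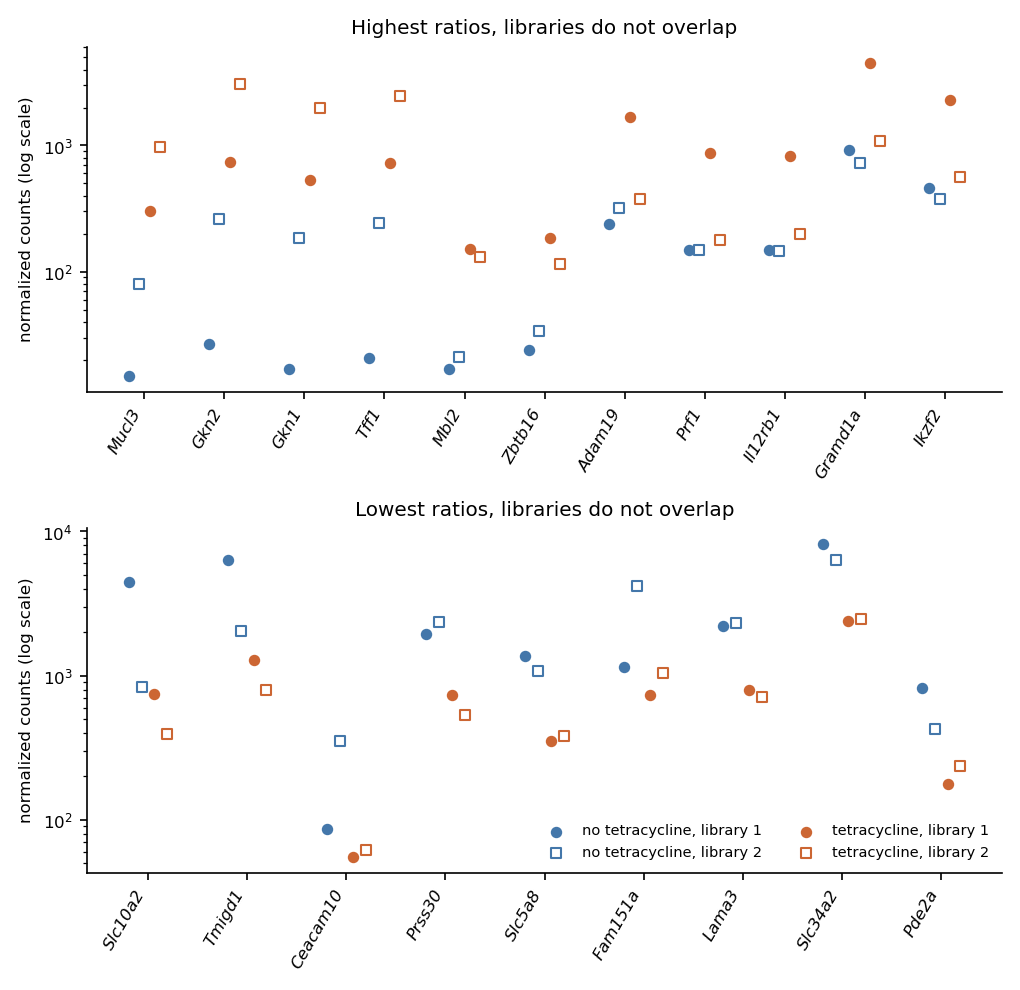
Normalized counts (log axis) of the genes named for the highest and lowest ratios in the 4 fed libraries, blue without and orange with tetracycline, circles for library 1 and squares for library 2. The gastric genes and Mbl2 are high in both libraries with tetracycline, while Adam19, Prf1, Il12rb1, Gramd1a and Ikzf2 are high in library 1 alone; of the 12 lower genes, the 9 with recovered counts are shown.

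Lymphocyte genes were higher in library 1 with tetracycline. Of 27 members on the list, 26 were above 0 and 19 past 2-fold higher, beside 3.46% of all members, with a median of 1.27. Of 26 recovered genes, 6 were higher without overlap, beside 18.4% of all recovered members. Without library 1 with tetracycline the median was -0.10. Itgae, the integrin chain that anchors intraepithelial lymphocytes, had 2916 and 2981 normalized counts without and 14557 and 3712 with tetracycline (log2 ratio 1.61). Cd8a, a T cell co-receptor, had 3907 and 4571 against 18033 and 5073 (log2 ratio 1.43). Trdc, the constant part of the delta T cell receptor, had 1565 and 1602 against 7528 and 2002 (log2 ratio 1.57). In these 3 genes library 2 with tetracycline was also the next highest, so the groups did not overlap. Gzmb, a killing protease of cytotoxic cells, had 6708 and 8748 against 31430 and 9740 (log2 ratio 1.40). Ccl5, a T cell chemokine, had a log2 ratio of 1.95 with overlapping libraries, from 4803 and 7712 against 42356 and 6649 normalized counts.

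A gene of B cells had a smaller ratio. Cd79a, a part of the B cell receptor, had 741 and 1491 normalized counts without and 1858 and 366 with tetracycline (log2 ratio -0.02), with overlapping libraries. Myeloid genes had a median of 0.75 over 15 members, 14 above 0 and 2 not overlapping beside 18.4% of all recovered members, and 0.04 without library 1. Class II antigen presentation genes, used by dendritic cells and by epithelium, had a median of 0.30 over 11 members with 0 not overlapping, and -0.78 without library 1. Csf1r, the macrophage growth factor receptor, had 295 and 451 against 841 and 505 normalized counts (log2 ratio 0.83). The defining markers Ptprc, Cd3e and Cd8a were present in all 4 libraries. In bulk RNA, fewer cells of a type and less RNA per cell cannot be told apart, and the part of lymphocyte content in other ratios was not tested.

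**Figure D3:**
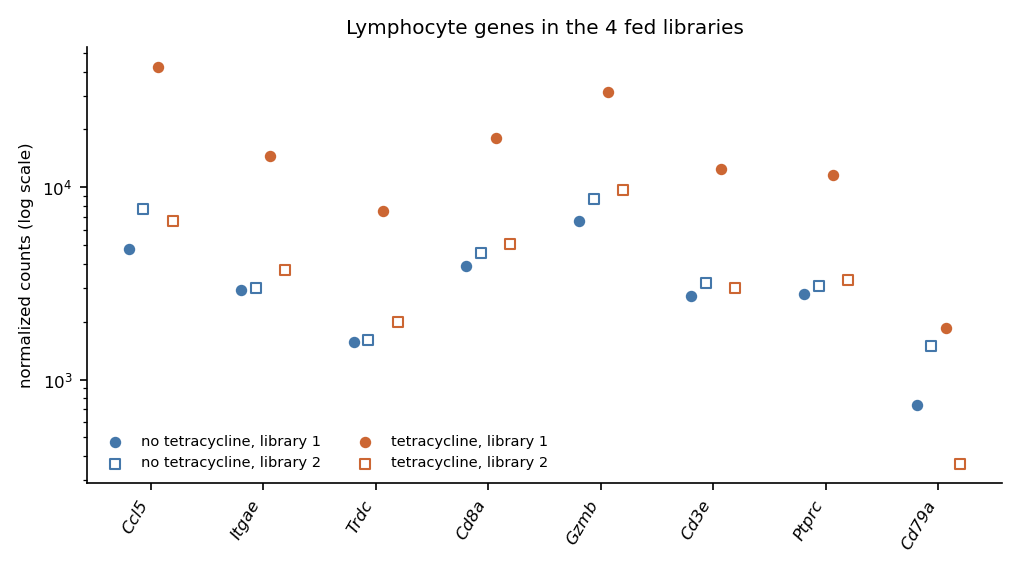
Normalized counts (log axis) of the lymphocyte genes named in the text, ordered by their log2 ratio, in the 4 fed libraries (blue without and orange with tetracycline, circles library 1 and squares library 2). Library 1 with tetracycline is the highest point for every gene shown, and for the T cell genes Cd3e, Cd8a and Itgae the other 3 libraries lie close together.

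Interferon-stimulated genes, the antiviral set, were mostly higher. Of 31 members, 28 were above 0 and 14 were higher without overlap and 0 lower, beside 18.4% and 17.7% of all recovered members, with a median of 0.38. Mx1, an antiviral GTPase, had 57.6 and 43.2 normalized counts without and 135 and 91.7 with tetracycline (log2 ratio 1.16). Gbp6, a guanylate-binding protein, had 232 and 213 against 724 and 248 (log2 ratio 1.11), and Herc6, a ubiquitin ligase, 437 and 373 against 917 and 584 (log2 ratio 0.87). Mx1 and Herc6 were higher in both libraries, Gbp6 mainly in library 1. The median without library 1 with tetracycline was 0.06. That library was also high in lymphocyte genes, and the part of lymphocyte content in the interferon ratios was not tested.

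Genes of the distal small intestine were among those lowest in ratio. Slc10a2 (ENSMUSG00000023073.3), the ileal bile acid importer, had 4455 and 832 normalized counts without and 747 and 392 with tetracycline, a log2 ratio of -2.23. Its libraries did not overlap, but library 1 without tetracycline carried most of the difference, and without that library the log2 ratio was -0.59. Tmigd1 (ENSMUSG00000020839.17), an adhesion protein of the brush border, had 6299.8 and 2052 against 1292 and 799 (log2 ratio -2.01, and -1.02 without the same library). Enpp7, the alkaline sphingomyelinase of bile, had fed means of 12439 and 3966 normalized counts (log2 ratio -1.67), and 4042 and 3889 in the single libraries with tetracycline. Its libraries without tetracycline were not recovered.

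Of 16 members on the distal list, 13 were below 0 and 7 were past 2-fold lower, beside 0.644% of all members, with a median of -0.91. Of 11 recovered genes, 8 were lower without overlap, beside 17.7% of all recovered members. With single libraries left out the median over recovered genes was -1.02 to -0.70. Nts, the hormone neurotensin of ileal endocrine cells, had 1012 and 1931 against 770.2 and 394 normalized counts (log2 ratio -1.35). Guca2a, which encodes guanylin, had 8760.0 and 15464 against 4871 and 6178 (log2 ratio -1.15). Cubn, the receptor for vitamin B12 with intrinsic factor, had 5692 and 5638 against 3348 and 3025 (log2 ratio -0.85). Amn, its partner amnionless, had 4216 and 7299.8 against 3129 and 2841 (log2 ratio -0.97). Cubn and Amn, which work as a pair, were thus lower in both libraries. Fabp6, the ileal bile acid binding protein, overlapped at 13402 and 18584 against 14357 and 9523 (log2 ratio -0.44).

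The proximal list showed no such lean, with a median of -0.00 over 15 members, 7 above and 8 below 0. Within it, 5 of the 6 recovered genes were higher and did not overlap, beside 18.4% of all recovered members. The median over these 6 was 0.56, and 0.21 to 0.67 with single libraries left out. Cybrd1, the duodenal ferric reductase, had 562 and 763 normalized counts without and 1662 and 2634 with tetracycline (log2 ratio 1.68). Slc40a1, the iron exporter ferroportin, had 5037 and 9704 against 11070.4 and 12823 (log2 ratio 0.68). Pdx1, a duodenal transcription factor, had 1212 and 1922 against 2054 and 2419 (log2 ratio 0.50), and Onecut2, another, 4181 and 3181 against 4963 and 6597 (log2 ratio 0.63). Gata4, which sets jejunal identity, had a log2 ratio of 0.16. The 9 members without recovered libraries, among them Lct, the lactase gene (log2 ratio -0.40), and Npc1l1, the cholesterol importer (-0.67), include the most abundant genes of the list. Which stretch of intestine the crypts were taken from is not given in the labels, and its part in these ratios was not tested.

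Bile acid handling genes were mixed, and Slc10a2, Fabp6 and Fgf15 are also on the distal list. Both subunits of the basolateral bile acid exporter were lower. Slc51b had 3554 and 5105 normalized counts without and 2492 and 1770 with tetracycline (log2 ratio -1.04). Slc51a had 9053 and 12437 against 5443 and 5914 (log2 ratio -0.94). Nr1h4, the bile acid receptor FXR, had 2429 and 2863 against 2211 and 2307 (log2 ratio -0.25). Its target Nr0b2, a repressor, was higher, with 172 and 389 against 558 and 544 (log2 ratio 0.96, not overlapping). Fgf15, the hormone that FXR induces in the ileum, had 155 and 99.5 against 115 and 300 (log2 ratio 0.69) and overlapped. Of 9 recovered genes, 4 were below 0 without overlap and 1 above, beside 17.7% and 18.4% of all recovered members. The median over 10 members was -0.20, and over recovered genes without library 1 of the group without tetracycline it was -0.39.

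Antimicrobial lectins of the Reg3 family were lower. Reg3g (ENSMUSG00000030017.3) had fed means of 8916 normalized counts without and 2452 with tetracycline, a log2 ratio of -1.88 (3.68-fold lower). Reg3b (ENSMUSG00000071356.8) had fed means of 12602 and 3540 (log2 ratio -1.85). The libraries without tetracycline were not recovered for either. With it, Reg3g had 2575 and 2329 normalized counts and Reg3b 3281 and 3799, so the libraries with tetracycline were alike. Reg3a, another family member, had 9554 and 20109 against 6008 and 8406 (log2 ratio -1.06) and did not overlap.

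The windows around the start sites of Reg3b and Reg3g are shown because both genes had nearly the same ratio and lie on the same chromosome. Both are RefSeq windows of GRCm38.p6, from 250 bases before to 50 after the start. Reg3b lies at chr6:78370635-78370934 on the plus strand and Reg3g at chr6:78468825-78469124 on the minus strand. Capitals mark the longest run that both share, 29 bases that begin 20 bases before the start of each.
Reg3b: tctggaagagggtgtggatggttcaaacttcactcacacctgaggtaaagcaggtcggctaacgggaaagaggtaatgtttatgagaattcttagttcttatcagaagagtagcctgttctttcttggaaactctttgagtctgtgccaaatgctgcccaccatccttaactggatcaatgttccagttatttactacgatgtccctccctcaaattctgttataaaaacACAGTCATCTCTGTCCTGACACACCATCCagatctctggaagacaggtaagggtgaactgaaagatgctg
Reg3g: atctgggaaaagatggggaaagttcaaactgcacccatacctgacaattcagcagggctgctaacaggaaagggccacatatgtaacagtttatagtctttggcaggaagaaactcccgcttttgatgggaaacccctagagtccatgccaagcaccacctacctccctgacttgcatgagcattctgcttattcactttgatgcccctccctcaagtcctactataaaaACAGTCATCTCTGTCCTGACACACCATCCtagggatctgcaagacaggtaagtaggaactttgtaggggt
A STAT-type motif (TTCNNNGAA, which reads the same on both strands) was found 1 time in the Reg3b window, 129 bases before the start, and 0 times in that of Reg3g. It occurs in 8.3% of 32851 such windows.

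The list of genes that follow the microbiota was mixed. It holds Reg3g, Reg3b and Reg3a, so its counts and median repeat their values in part. Of its 15 members, 9 were below and 6 above 0, with a median of -0.42. The 4 past 2-fold lower were Reg3g, Reg3b, Reg3a and Duoxa2, beside 0.644% of all members. Of 12 recovered genes, 5 were lower and 1 higher without overlap, beside 17.7% and 18.4% of all recovered members. Duox2, the dual oxidase that makes hydrogen peroxide at the epithelial surface, had 761 and 862 normalized counts without and 457 and 470.3 with tetracycline (log2 ratio -0.83). Duoxa2, its maturation factor, had 160 and 283 against 106 and 94.9 (log2 ratio -1.16). Both parts of the oxidase were lower in each library with tetracycline. Nos2, the inducible nitric oxide synthase, had 236 and 392 against 249 and 122 (log2 ratio -0.78) and overlapped. Ang4, a Paneth cell ribonuclease, and Pigr, the receptor that carries antibodies across the epithelium, had log2 ratios of 0.09 and 0.16. Without the genes lacking recovered counts the median was -0.26.

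The other genes among the 12 lowest ratios were of varied function. Slc5a8, a sodium-coupled transporter of short-chain fatty acids and lactate, had 1377 and 1077 normalized counts without and 351 and 383 with tetracycline (log2 ratio -1.76). Slc34a2, a phosphate transporter, had 8225 and 6360.5 against 2376 and 2473 (log2 ratio -1.61). Prss30, a serine protease, had 1951 and 2356 against 739 and 534 (log2 ratio -1.77), and Lama3, a laminin chain of the basement membrane, 2220.0 and 2320 against 792 and 709.7 (log2 ratio -1.61). These 4 genes were alike within each group, and their log2 ratios stayed between -2.05 and -1.44 whichever library was left out. Fam151a had 1149 and 4216 against 729 and 1035 (log2 ratio -1.62, and -0.41 without library 2 of the group without tetracycline). Ceacam10, an immunoglobulin-like adhesion protein, had 86.3 and 352 against 55.1 and 61.5 (log2 ratio -1.93, and -0.60 without the same library).

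A row with the symbol Pde2a, a cyclic nucleotide phosphodiesterase, completed the 12. It had 819 and 425 normalized counts without and 178 and 237 with tetracycline (log2 ratio -1.60). That row (ENSMUSG00000030653.18) is Gm45837 in GENCODE M21, and the row GENCODE calls Pde2a (ENSMUSG00000110195.2) had a log2 ratio of -0.16, so the assignment of reads between them is uncertain. Amy2a5, a pancreatic amylase, had the lowest ratio of all but was passed over for overlap. It had 0 and 640.0 normalized counts without and 66.9 and 0 with tetracycline, and so rests on library 2 without tetracycline. It has near-identical neighbours, between which reads may be shared.

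Goblet and enteroendocrine genes were mostly lower, as were several general markers of epithelium. Of these, Epcam had a log2 ratio of -0.49 and the keratin genes Krt8, Krt18 and Krt19 -0.48, -0.48 and -0.28, while Vil1 was at -0.00. The part of epithelial content in the goblet and enteroendocrine ratios was not tested. Of 17 goblet cell genes, 16 were below 0, with a median of -0.67, and -0.41 without library 1 with tetracycline. Of 11 recovered goblet genes, 9 were lower without overlap, beside 17.7% of all recovered members. Agr2, a disulfide isomerase that folds mucin, had 25188 and 31788 normalized counts without and 10729 and 16686 with tetracycline (log2 ratio -1.07). Zg16, a lectin of the mucus, had fed means of 146815 and 72154 (log2 ratio -1.04), and Tff3, the intestinal trefoil peptide, 59208 and 31658 (log2 ratio -0.92). Muc2, the gel-forming mucin, had fed means of 63118 and 44956 (log2 ratio -0.51). The transcription factors of the lineage were also lower. Atoh1, which commits cells to secretory fate, had 1287 and 1347 against 726 and 888 (log2 ratio -0.72), and Spdef, which drives goblet maturation, 1295 and 1551 against 770.2 and 1041 (log2 ratio -0.67).

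Of 21 enteroendocrine genes, 20 were below 0, with a median of -0.43. In that direction 13 did not overlap, beside 17.7% of all recovered members. Gcg, the precursor of glucagon-like peptides, had 2492 and 3503 normalized counts without and 1034 and 1651 with tetracycline (log2 ratio -1.18). Pyy, the peptide hormone of distal endocrine cells, had 264 and 350 against 183 and 116 (log2 ratio -1.06). Chga, the granule protein chromogranin A, had 8671 and 9755 against 6383 and 5906 (log2 ratio -0.60). Sst, made by the delta cells, was at 2190 and 2848 against 2340 and 2772 (log2 ratio 0.00). The 3 genes past 2-fold were Nts, Gcg and Pyy, which encode hormones made largely in the distal gut. Neurog3, the factor that starts the lineage, had a log2 ratio of -0.30 with overlapping libraries. Paneth cell genes had a median of 0.02 over 20 members, with Lyz1, their lysozyme, at 0.04. The Paneth median was -0.23 over recovered genes without library 2 with tetracycline. Tuft cell genes had a median of -0.18, with 4 of 16 lower without overlap beside 17.7% of all recovered members, and -0.08 without library 2 of the group without tetracycline or without library 1 with it.

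Cholesterol synthesis genes, targets of the transcription factor SREBP2, were lower by small and even amounts. Of 22 recovered genes, 18 were lower without overlap, beside 17.7% of all recovered members. Of 23 members, 22 were below 0, with a median of -0.39. Left-out libraries gave -0.46 to -0.36. Msmo1, a sterol demethylation enzyme, had 5541 and 4607 normalized counts without and 3305 and 3232 with tetracycline (log2 ratio -0.65). Srebf2, the gene of the factor itself, had a log2 ratio of -0.08 with overlapping libraries. Lipogenesis genes had a median of -0.00 over 12 members, with 0 of 11 not overlapping.

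**Figure D4:**
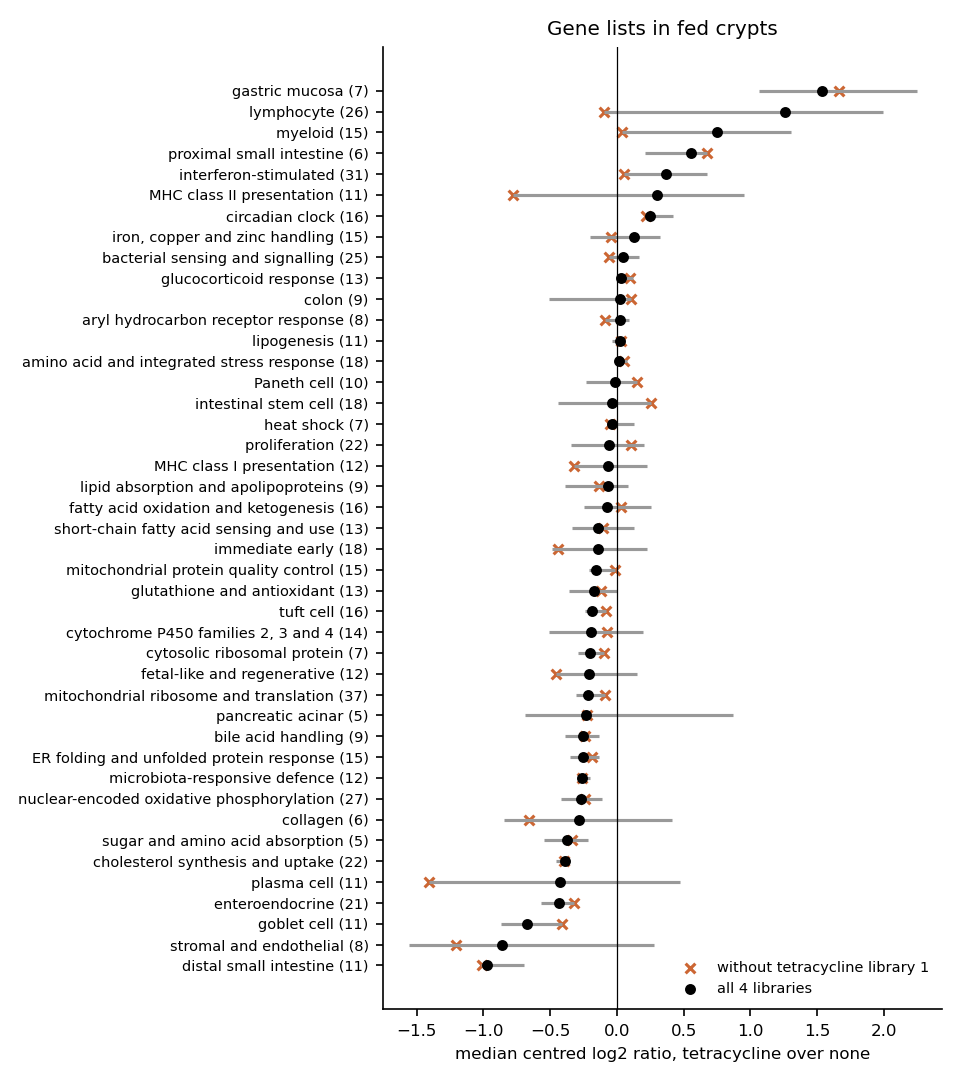
Median centred log2 ratio of each list with at least 5 recovered genes (their number in brackets). Black points use all 4 fed libraries, grey lines span the medians with 1 library left out, and orange crosses leave out library 1 with tetracycline. The lymphocyte median is 1.26 at the point and -0.10 at the cross, while the gastric and distal medians remain at 1.66 and -1.01.

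Circadian clock genes were split between higher and lower. The clock is a loop in which Clock, Arntl and Npas2 drive the Per, Cry and Nr1d genes, and these in turn repress the drivers. Of 16 members, 9 were higher and 5 lower without overlap, against 18.4% and 17.7% of all recovered members. Their median was 0.25, and 0.22 to 0.42 with single libraries left out. Dbp, an output factor of the loop, had 327 and 609 normalized counts without and 1603 and 722 with tetracycline (log2 ratio 1.30). Per3 had 169 and 151 against 365 and 244 (log2 ratio 0.91), and Per1 1102 and 1144 against 1610 and 1553 (log2 ratio 0.48). Nr1d2, which encodes the repressor REV-ERB beta, had 1826 and 1764 against 3018 and 2746 (log2 ratio 0.67). Nr1d1, which encodes REV-ERB alpha, had 3544 and 5254 against 8495 and 5705 (log2 ratio 0.67). Tef and Hlf, of the same family as Dbp, had log2 ratios of 0.75 and 0.81.

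The genes below 0 included the drivers Arntl and Npas2. Arntl had 2339 and 2182 normalized counts without and 1609 and 2157 with tetracycline (log2 ratio -0.28), with the nearest libraries almost equal. Npas2 had 1848 and 2371 against 1813 and 1735 (log2 ratio -0.27). Cry1 had 743 and 814 against 680 and 480.0 (log2 ratio -0.44). Clock itself had 4774 and 3893 against 4838 and 5813 (log2 ratio 0.28). The labels give no hour of collection, and its part in these ratios was not tested.

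**Figure D5:**
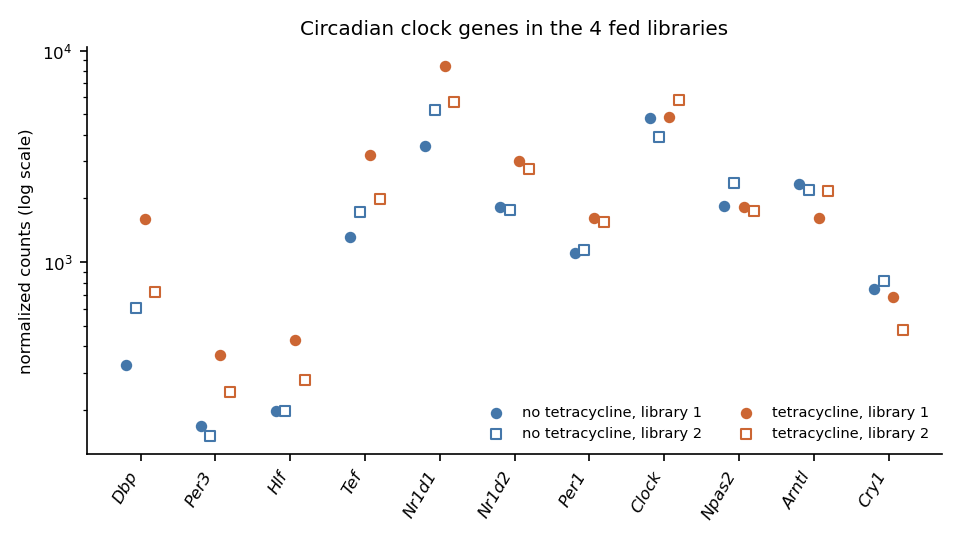
Normalized counts (log axis) of the clock genes named in the text in the 4 fed libraries, ordered by log2 ratio from Dbp at 1.30 to Cry1 at -0.44 (blue without and orange with tetracycline, circles library 1 and squares library 2). For Dbp, Per3, Hlf, Tef, Nr1d1, Nr1d2 and Per1 both orange points lie above both blue points.

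The windows of Per1 and Per3 are shown because they hold D-boxes, the element that Dbp, Tef and Hlf bind, and because their genes were higher with these factors. They are RefSeq windows of GRCm38.p6 of 250 bases before to 50 after the start: Per1 at chr11:69098699-69098998 on the plus strand, with another window that holds 0 D-boxes not shown, and Per3 at chr4:151044616-151044915 on the minus strand. Capitals mark D-box matches (TTATGNAA, on either strand).
Per1: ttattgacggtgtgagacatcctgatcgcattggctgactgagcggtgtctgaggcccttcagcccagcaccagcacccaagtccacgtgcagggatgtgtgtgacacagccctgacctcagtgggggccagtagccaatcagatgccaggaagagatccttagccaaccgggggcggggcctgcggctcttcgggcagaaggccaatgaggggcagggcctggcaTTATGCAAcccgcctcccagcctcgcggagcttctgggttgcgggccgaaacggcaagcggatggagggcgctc
Per3: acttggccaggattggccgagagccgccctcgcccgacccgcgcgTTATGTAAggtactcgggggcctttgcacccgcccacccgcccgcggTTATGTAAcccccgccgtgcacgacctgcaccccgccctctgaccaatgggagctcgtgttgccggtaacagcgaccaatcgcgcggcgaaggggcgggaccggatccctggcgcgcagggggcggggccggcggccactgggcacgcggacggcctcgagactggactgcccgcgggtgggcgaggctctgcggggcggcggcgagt
The match in Per1 begins 24 bases before the start and those in Per3 205 and 158 bases before it. Taking the first listed window of each of 13 clock genes, 2 held a D-box and 3 an E-box (CACGTG, the element of Clock and Arntl), against 3.38% and 7.15% of 32851 windows, among which a gene can have several. Both motifs were counted separately, and Dbp, with the largest ratio, held neither in that window. The same was true of Hlf, Nr1d1 and Nr1d2. The Per1 window shown also holds 1 E-box, which is not marked. Whether Dbp, Tef or Hlf act at the windows of Per1 and Per3 was not tested.

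Cyp1a1, an enzyme that the aryl hydrocarbon receptor induces in response to dietary and microbial ligands, was lower. It had 1657 and 2612 normalized counts without and 665 and 877 with tetracycline (log2 ratio -1.49). Leaving out each library in turn gave -1.81 to -1.13. The other genes of the receptor's response had ratios closer to 0 than Cyp1a1, on both sides of it. Tiparp, a target, had a log2 ratio of -0.22 without overlap, and Nqo1, a quinone reductase, one of -0.18 with overlapping libraries. Ahr, the receptor, had 1168 and 1004 against 1638 and 1604 (log2 ratio 0.56), and Ugt1a6a, a conjugating enzyme, 2014 and 2771 against 2841 and 5359 (log2 ratio 0.76). Ahrr, also on the list, had a log2 ratio of 0.76. Of 8 members, 3 were higher and 3 lower without overlap, beside 18.4% and 17.7% of all recovered members.

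The Cyp1a1 window is shown because it is the gene of the list with the largest ratio and the receptor acts at its promoter. It lies at chr9:57697363-57697662 on the plus strand (RefSeq, GRCm38.p6, 250 bases before to 50 after the start), and capitals mark GCGTG, the core of the receptor's element, searched on both strands.
Cyp1a1: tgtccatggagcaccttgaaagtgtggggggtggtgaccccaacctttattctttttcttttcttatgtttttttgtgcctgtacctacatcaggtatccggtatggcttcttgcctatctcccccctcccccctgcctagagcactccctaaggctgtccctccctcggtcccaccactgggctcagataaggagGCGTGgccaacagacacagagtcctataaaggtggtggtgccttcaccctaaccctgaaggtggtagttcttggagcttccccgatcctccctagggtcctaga
There was 1 match, 54 bases before the start, and 32.4% of the 32851 windows hold this short motif.

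Genes of mitochondria and ribosomes were lower by small amounts. All 13 mitochondrially encoded genes were below 0, with a median of -0.50 and a range of -0.93 to -0.23. mt-Co2, a subunit of cytochrome oxidase, had fed means of 695088 and 370031 (log2 ratio -0.93), and mt-Co1, another, 2367945 and 1980321 (log2 ratio -0.28). mt-Nd6, a subunit of complex I and the only one of them with recovered counts, had 18916 and 19518 against 11855 and 15503 (log2 ratio -0.51). Nuclear-encoded subunits of oxidative phosphorylation had a median of -0.21, with 39 of 39 below 0. Genes of the mitochondrial ribosome had a median of -0.21, with 36 of 37 below 0 and 22 not overlapping in that direction, beside 17.7% of all recovered members. Cytosolic ribosomal protein genes, which are not mitochondrial, were likewise below 0 in 40 of 40 members, with a median of -0.25. Single libraries moved these medians over recovered genes. The oxidative phosphorylation median was -0.42 without library 1 and -0.11 without library 2 of the group without tetracycline. Without library 1 with tetracycline the mitochondrial ribosome median was -0.09 and the cytosolic ribosomal median -0.10.

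Transcript length moved with these ratios. Across 13176 members, the ratio had a Spearman rho of 0.39 with the length of the longest annotated transcript, a description across genes in 4 shared libraries. The decile of genes with the shortest transcripts, up to 1280 bases, had a median of -0.22, and the decile with the longest, from 6639 bases, one of 0.24. After subtraction of the median of each gene's length decile, the medians were -0.07 for cytosolic ribosomal proteins, -0.06 for nuclear oxidative phosphorylation, -0.12 for the mitochondrial ribosome and -0.29 for mitochondrially encoded genes. The same step left -0.84 for distal, -0.58 for goblet, -0.34 for enteroendocrine and -0.42 for cholesterol genes. It gave 0.13 for clock genes, whose median was 0.25 before, 0.24 for Paneth cell genes and -0.08 for tuft cell genes. In fasted mice the rho was -0.24. The part of RNA quality in this was not tested.

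Genes of folding in the endoplasmic reticulum had a median of -0.28 over 20 members, with 18 below 0. Of 15 recovered genes, 8 were lower without overlap, beside 17.7% of all recovered members. The median over these recovered genes was -0.14 without library 2 of the group without tetracycline. Intestinal stem cell genes had a median of -0.03 over 20 members, with 0 not overlapping in either direction, and Lgr5, the stem cell receptor, had 665 and 375 normalized counts without and 391 and 722 with tetracycline (log2 ratio 0.08). Proliferation genes had a median of -0.06 over 22 members, again with 0 not overlapping. Enterocyte genes had a median of -0.27, with 18 of 20 below 0, and only 1 of them had recovered libraries. Erythrocyte genes had a median of -0.997, and of -0.05 over recovered genes without library 2 of the group without tetracycline. Stromal genes had a median of -0.86. Col3a1, a fibroblast collagen, had 177 and 664 normalized counts in the libraries without and 192 and 153 in those with tetracycline (log2 ratio -1.30). Without that library the stromal median was 0.28.

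In fasted crypts the same ratio can be set beside these values. There 57 members were higher (0.432%) and 144 lower (1.09%) by 2-fold or more. Of the 457 genes higher in fed crypts, 7 were higher in fasted crypts too, which is 1.53% of the 457 and 12.3% of the 57. Of the 85 lower genes, 24 were lower in fasted crypts, 28.2% of the 85 and 16.7% of the 144. Fed and fasted ratios share no library. Reg3g, Reg3b, Enpp7, Slc34a2, Prss30 and Slc5a8 were among those lower in both, with fasted log2 ratios of -4.68, -2.62, -2.11, -2.28, -2.10 and -1.98. The fasted libraries of Slc34a2, Prss30 and Slc5a8 overlapped, and library 1 without tetracycline was the high one. Slc34a2 had 25109 and 3709 normalized counts in fasted libraries without and 1606 and 4617 in those with tetracycline. Prss30 had 7983 and 1357 against 634 and 1652, and Slc5a8 9372 and 1292 against 571 and 2258. Fasted libraries without tetracycline were not recovered for Reg3g, Reg3b and Enpp7. The gastric genes Gkn1, Gkn2 and Tff1 were not higher in fasted crypts, with fasted log2 ratios of -2.57, -2.19 and -2.24. For each of them, 1 fasted library of each group had 0 to 0.92 normalized counts.

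At the edge of the rule, the members with the lowest means were Zfp69 at 50.002 with tetracycline (log2 ratio -0.03) and Ankrd35 at 50.006 (0.24). Just outside were Btbd11 at 49.986 without tetracycline (log2 ratio 2.15) and D130040H23Rik at 49.983 (0.97).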

How the data were processed

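RNA from small-intestinal crypts was sequenced in 4 groups. The starting point was 2 tables in which the authors compared fasted with fed mice, the first without and the other with tetracycline. Per the submitters' processing notes, Salmon, DESeq2 and mm10 were used; their versions are not given in the sources used here, and per the labels' protocols the library kit does not keep the strand, so overlapping and antisense genes are uncertain. Per the file headers, the authors' mean is a signal, the average of counts divided by size factors over a table's libraries. The authors gave each fold change as a log2 value, with a standard error in the same unit. The deposited test statistic is a score, and the deposited p-values and adjusted p-values were not used. There are 0 per-sample columns left unused.

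Each fed mean was rebuilt as 2 times the mean over 1 plus the linear fold change. The log2 ratio was centred on the median of the 13194 members, and no pseudocount was used. Since size factors divide whole counts, the counts of 4 libraries per table, 2 fed and 2 fasted, were recovered from the digits of each mean together with the fold change and its standard error. This succeeded for 12685 members, including 12040 of the 12043 with a mean under 10000 in both tables; the others are among the most abundant genes. Size factors of the fed libraries were 1.01 and 0.995 without and 1.27 and 0.927 with tetracycline. The design had allowed for values per labelled sample; library values are single values, with no standard deviation and no test. No p-value is given, and 1 member with 0 counts in all 4 fed libraries has no interpretable ratio. Printed library values are counts divided by the table's own size factor, and those with tetracycline are further divided by 1.01 where overlap is judged.

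The members and the 47 gene lists were chosen with earlier results of these data known. Named genes are the 12 largest rises and 12 largest falls among genes with a symbol that is not a predicted name, a pseudogene or an antigen receptor gene, and whose recovered fed libraries do not overlap; the overlap was not examined for 3 of the lower genes, Reg3g, Reg3b and Enpp7, whose counts were not recovered, and 1 gene per direction was passed over for overlap and is named. A few genes are not reported here. Genes of the lists are named beside their list's count and median. Gene types and transcript lengths came from GENCODE mouse release M21, matched by Ensembl identifier without version for 13176 members. Promoter windows came from RefSeq, GRCm38.p6. Alternatives changed the filter, centring, pseudocount, fold threshold, gene type, standard error, source of the fed mean and each recovered library; a correction for transcript length was chosen after seeing the data. The recovery and the ratio were tested on simulated data. Python 3.11.15, numpy 2.4.6, pandas 2.3.3, numba 0.67.0 and matplotlib 3.10.9 were used.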

Additional observations from a re-analysis of the deposited data

Results flagged for a closer look

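Ceacam10, an immunoglobulin-like adhesion protein, lay on opposite sides of the median in fed and fasted crypts. In fed crypts its centred log2 ratio of tetracycline over none was -1.93, from 86.3 and 352 normalized counts without and 55.1 and 61.5 with tetracycline. In fasted crypts the ratio was 0.53, from 30.3 and 46.2 against 63.4 and 52.3. Each library with tetracycline was lower than each without in fed crypts and higher in fasted crypts. The difference between the fed and fasted ratios was not tested, and without library 2 of the fed group without tetracycline the fed log2 ratio was -0.60.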

How the results depend on the processing

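The counts of genes past 2-fold depended on most settings tried. Genes higher and lower numbered 943 and 246 with a mean of at least 10, 235 and 46 with at least 200, and 2133 and 939 with no filter and a pseudocount of 1. They numbered 767 and 36 with the ribosomal protein genes as centre, a shift of 0.25 on the log2 scale, 7 and 5 at 4-fold, 1069 and 344 at 1.5-fold, and 13 and 20 with a standard error of at most 0.5. The genes that also did not overlap numbered 575 and 183 at 10, 108 and 38 at 200, 381 and 43 with the summed means as centre (a shift of 0.12), 585 and 24 with ribosomal proteins as centre, 7 and 3 at 4-fold, and 573 and 259 at 1.5-fold. With 1 library left out, 67 to 904 genes were higher and 45 to 187 lower. Of 516 alternative list medians, 431 stayed within the spread between libraries. Of all 516, 85 had the other sign, in 32 of the 47 lists, and in all but 3 of them the reported median was less than 0.5 from 0; MHC class II presentation, for example, went from 0.305 to -0.778 without library 1 with tetracycline and -0.11 without library 1 of the other group. The 3 were of lists with larger medians: the lymphocyte median ranged from -0.1 to 1.995 with 1 library left out, and the stromal median from -1.56 to 0.28, and was 0.762 with a mean of at least 200. The cause of these changes was not tested. With the ribosomal proteins as centre every list median is higher by 0.25, so the small negative medians of the mitochondrial and ribosomal lists depend on the centre. No paired analysis was possible because the labels give 1 sample per group and the recovered libraries carry no number. Tables scaled separately, 2 unlabelled libraries per group and the abundant genes without recovered counts limit these values.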

Other observations

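Genes of the fetal-like and regenerative list, which the repairing epithelium is known to use, had a median of -0.22 over 13 members, with 5 of 12 recovered genes lower and 2 higher without overlap, beside 17.7% and 18.4% of all recovered members. The median was 0.152 without library 2 of the group without tetracycline and 0.105 without library 2 with it. Ereg, which encodes the growth factor epiregulin, had the lowest ratio of that list, a log2 value of -1.35. Short-chain fatty acid genes had a median of -0.13 over 13 members, of which Slc5a8 was past 2-fold. That median was -0.334 without library 1 and 0.13 without library 2 of the group without tetracycline. Gene types differed slightly in their median ratio. Processed pseudogenes had a median of 0.28 and long intergenic RNAs of 0.165, against -0.006 for protein-coding genes.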
